A study of Homo sapiens with 24 samples.

Results

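The CLK and SRPK kinases were followed as 6 genes, CLK1, CLK2, CLK3, CLK4, SRPK1 and SRPK2, chosen by symbol from the 23106 genes of each count table, and all 6 passed the filter on low counts in every cell line. These kinases phosphorylate the serine-arginine (SR) proteins, a family of splicing factors that bind exons and help the spliceosome choose splice sites. SRPKs act largely in the cytoplasm, where phosphorylation of the arginine-serine domain lets the SR protein enter the nucleus. CLKs, dual-specificity kinases named for their similarity to CDC2, act in the nucleus, phosphorylate SR proteins further and release them from nuclear speckles.

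Poly-A RNA was sequenced from 4 human cancer cell lines, of which A549 came from lung, HCT-116 from colon, PC3 from prostate and T47D from breast. Each line was kept in normoxia (21% O2) or in hypoxia (0.5% O2 for 16 hours), with 3 libraries in each of the 8 groups and no genetic change or drug in any of them. T47D grew in DMEM, HCT-116 in McCoy's 5a and both A549 and PC3 in F12K, so a line and its medium cannot be told apart, except between A549 and PC3. The 24 libraries held between 22698584 and 62850747 counted fragments. Nothing in the sources used here says whether the replicates of a group were separate cultures, so the p-values measure the spread between these libraries, which may be technical.

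The oxygen label was checked with 3 textbook targets of hypoxia-inducible factor (HIF). CA9, a carbonic anhydrase, rose by 8.40 in A549, 7.37 in HCT-116 and 1.81 in PC3 on the log2 scale, and in T47D it went from 0 counts in all 3 normoxic libraries to at least 345-fold above the level of 3 counts per library. ADM, which encodes adrenomedullin, rose in all 4 lines, by 1.62, 2.72, 0.52 and 1.60 in A549, HCT-116, PC3 and T47D. PDK1, a pyruvate dehydrogenase kinase, rose in A549, HCT-116 and T47D by 2.64, 1.99 and 3.35, whereas the value in PC3 was 0.11 (adjusted p = 0.496). The fold changes of all 3 genes, though not their levels, were lowest in PC3, where CA9 and ADM were nonetheless called up.

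Line identity was checked in normoxia in CPM, counts scaled to the size of each library. T47D held the luminal markers ESR1 (166 CPM), PGR (635 CPM), GATA3 (708 CPM) and FOXA1 (274 CPM). PC3 held the homeobox gene HOXB13 (75.1 CPM), with the prostate marker KLK3 at 0 counts. HCT-116 held CDX2 (11.8 CPM), with CDX1 and VIL1 at 0 and CDH17 at 0.0560 CPM. In A549 the lung markers were absent or nearly so, with NKX2-1 at 0, SFTPB at 0.0241 CPM and NAPSA at 0.438 CPM. Some markers went against the labels, with CDH17 at 14.6 CPM in A549, and NKX2-1 and NAPSA at 0.936 and 1.04 CPM in HCT-116, above their levels in A549. HOXB13 was also at 11.6 CPM in A549 and 9.54 CPM in HCT-116. Keratin genes KRT8 and KRT18 were at 328 CPM or more in all normoxic libraries, while CDH1 was at 12.3 CPM and EPCAM at 4.01 CPM in A549. Leukocyte PTPRC and endothelial PECAM1 did not pass 0.235 and 0.934 CPM as a mean in any normoxic group, and fibroblast COL1A1 lay between 13.3 and 38.8 CPM. Of these 3 markers of other cells, COL1A1 was called up in hypoxia in A549 (0.80 on the log2 scale, adjusted p = 0.00483) and PC3 (0.48, adjusted p = 0.0270) and was not called in HCT-116 (-0.31) or T47D (0.06). PECAM1 went from 0.934 to 1.89 CPM in PC3 (adjusted p = 0.0705), and PTPRC was not called there (0.09), PC3 being the only line where these 2 genes passed the filter on low counts. Their summed level, nearly all COL1A1, was 9.99 to 16.2 CPM in normoxia and 19.4 to 26.7 CPM in hypoxia in A549, and 13.2 to 16.7 CPM and 19.5 to 23.6 CPM in PC3. In HCT-116 it was 15.6 to 25.4 CPM and 12.4 to 22.6 CPM, and in T47D 30.2 to 54.9 CPM and 36.9 to 51.7 CPM, with the groups overlapping in both. The part of these markers in the kinase results was not tested.

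Each kinase was placed on GRCh37, the build of the deposited counts. CLK1 (ENSG00000013441) is at chr2:201717732-201729414 and CLK2 (ENSG00000176444) at chr1:155232659-155248282, both on the minus strand. CLK3 (ENSG00000179335) is at chr15:74890841-74937755 on the plus strand, and CLK4 (ENSG00000113240) at chr5:178029665-178057616 on the minus strand. SRPK1 (ENSG00000096063) is at chr6:35800743-35889119 and SRPK2 (ENSG00000135250) at chr7:104751151-105039755, again on the minus strand. The canonical transcripts hold 13 exons in each CLK gene and 16 in each SRPK gene.

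Some exons overlap genes of the opposite strand: EDC3 for CLK3, LHFPL5 for SRPK1, and KMT2E, listed under its older symbol MLL5, for SRPK2. The study's methods name ScriptSeq v2 or NEBNext Ultra II Directional as the library kit and do not say there which samples had which. The strand setting of the counting is not given in the sources used here. EDC3, an mRNA decapping factor, had log2 fold changes of -0.10, 0.32, -0.07 and 0.23 in A549, HCT-116, PC3 and T47D and was called in none of them. LHFPL5 stayed below 1 CPM as a mean in every group. The pseudogene CLK2P reached at most 12 counts in any library.

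The 3 promoter stretches are shown because the response of CLK3 went the other way from that of CLK2 and CLK4, and because the core letters of the hypoxia response element, to which HIF binds, can be read in them. Each run is the 250 bases before a RefSeq start site (GRCh38.p14), written 5′ to 3′ on the strand of the gene, with ACGTG or GCGTG on either strand in capitals. The CLK3 run lies on the plus strand at chr15:74615586-74615835 and precedes the downstream one of its 2 start sites. The CLK2 and CLK4 runs lie on the minus strand at chr1:155273505-155273754 and chr5:178627051-178627300.
CLK3: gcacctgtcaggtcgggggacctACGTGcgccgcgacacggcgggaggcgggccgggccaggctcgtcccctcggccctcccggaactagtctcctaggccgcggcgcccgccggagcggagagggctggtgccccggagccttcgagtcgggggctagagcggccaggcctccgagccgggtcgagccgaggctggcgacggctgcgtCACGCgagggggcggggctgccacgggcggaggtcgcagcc
CLK2: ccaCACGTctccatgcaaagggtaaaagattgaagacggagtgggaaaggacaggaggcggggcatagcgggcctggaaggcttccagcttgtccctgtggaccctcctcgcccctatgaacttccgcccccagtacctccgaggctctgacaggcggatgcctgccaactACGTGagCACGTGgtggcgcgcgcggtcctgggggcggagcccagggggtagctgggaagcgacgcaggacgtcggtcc
CLK4: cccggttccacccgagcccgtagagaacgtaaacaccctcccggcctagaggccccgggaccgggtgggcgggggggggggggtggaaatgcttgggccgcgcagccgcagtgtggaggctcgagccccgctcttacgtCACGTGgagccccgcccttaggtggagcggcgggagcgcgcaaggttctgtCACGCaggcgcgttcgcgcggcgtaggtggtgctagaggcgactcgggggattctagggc

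Over the whole 300-base window, which also takes in 50 bases after the start, CLK2 had 5 core matches (1 of them after the start), CLK4 had 3 and this CLK3 start site had 2, against 1 at the other CLK3 start site. The start sites of CLK1 had 3 and 2 matches, the SRPK1 window had 0, and the 4 SRPK2 windows had between 0 and 2. In CLK2 and CLK4 a pair of these matches is one palindrome, CACGTG, read on both strands. Of all 35116 RefSeq promoter windows of this length, 48.4% held at least 1 match, 23.1% at least 2, 10.1% at least 3 and 1.98% at least 5, and 7.26% held CACGTG. A match describes the letters only, and which start sites these cells used was not analysed here.

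Within each line hypoxia was compared with normoxia, and a gene was called when its Benjamini-Hochberg adjusted p over all genes tested was below 0.05 and its fold change above 1.2. In A549, 0 of the 6 kinases were called up by edgeR (0 also with DESeq2 and at an unadjusted p under 0.05) and 3 down, where 17.6% of all genes tested were up and 17.8% down. In HCT-116, 1 was up and 3 were down, against 23.3% up and 27.0% down over all genes. In PC3 the counts were 1 up and 2 down, against 16.6% and 15.7%, and in T47D 1 up and 2 down, against 6.55% and 6.69%. The median log2 fold change of the 6 kinases was -0.31, -0.46, -0.29 and -0.66 in A549, HCT-116, PC3 and T47D, beside medians between -0.01 and -0.03 over all genes.

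Scaling to total counts, in place of trimmed means, moved the median of all genes to -0.13 in A549 and -0.12 in T47D. It also changed the split of all calls from 2452 up and 2476 down to 1778 and 3461 in A549, and from 922 and 942 to 666 and 1412 in T47D. Blocking on the replicate number took the calls over all genes in T47D to 1281 up and 1485 down. Counts are relative to the sequenced RNA of a library, so less of a transcript per cell and fewer cells carrying it cannot be told apart.

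**Figure D1:**
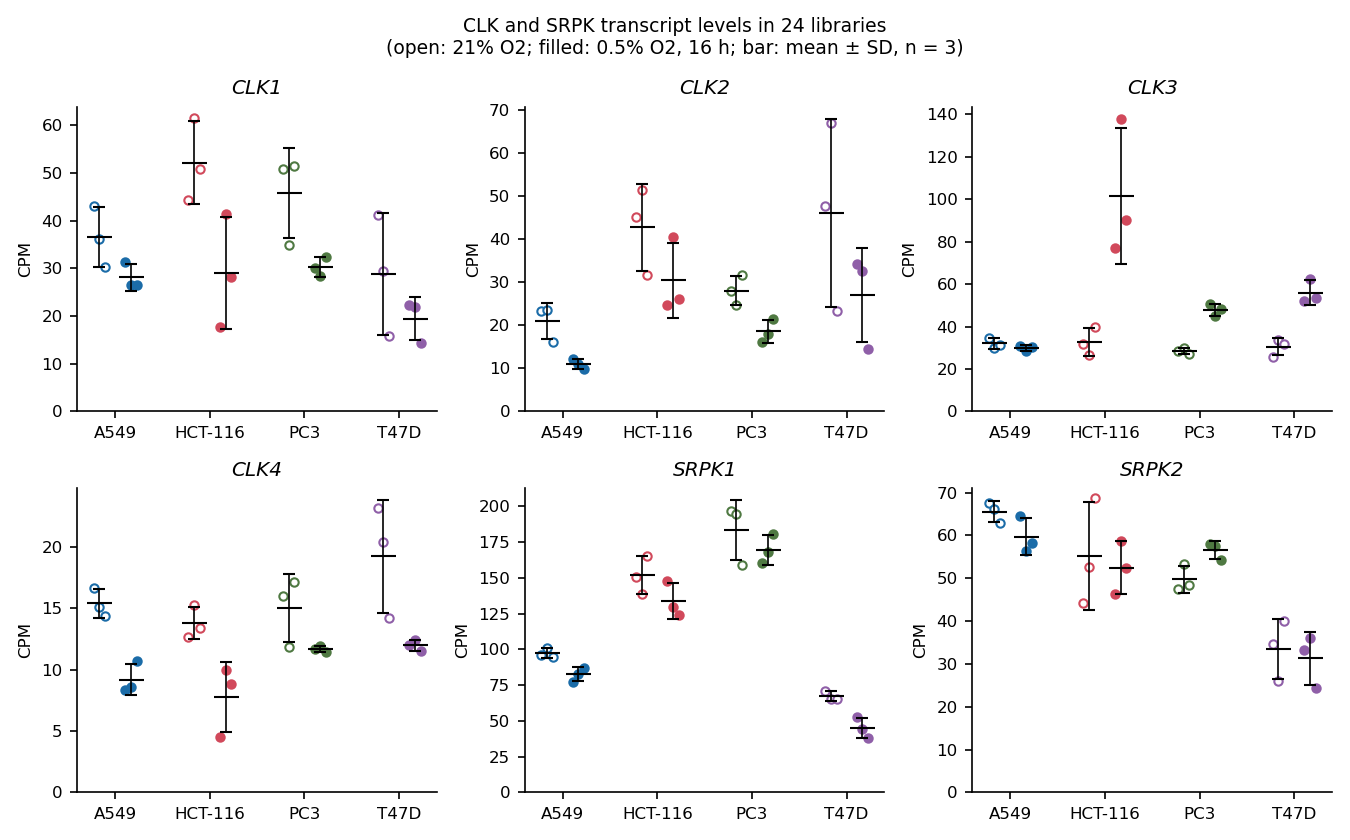
Levels of the 6 kinases in CPM (vertical axes, linear from 0) in each library, by cell line, with open points for 21% O2, filled points for 0.5% O2 for 16 h, and bars for mean ± SD (n = 3). CLK3 in HCT-116 hypoxia lies between 76.8 and 138 CPM, above all other CLK3 values, and hypoxic CLK4 values lie below the normoxic ones in A549, HCT-116 and T47D.

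CLK3 rose in hypoxia in 3 of the 4 lines, by 2.87-fold in HCT-116, 1.74-fold in T47D and 1.62-fold in PC3, and was not called in A549. HCT-116 libraries held 31.7, 26.7 and 39.6 CPM in normoxia and 76.8, 138 and 90.2 CPM in hypoxia. Every hypoxic library was above every normoxic one, although the hypoxic values differed among themselves by more than the normoxic ones. The log2 fold change was 1.52 ± 0.23 (SE, n = 3 against 3, adjusted p = 0.000257).

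PC3 libraries held 28.7, 29.8 and 27.2 CPM of CLK3 in normoxia and 50.7, 44.8 and 48.3 CPM in hypoxia. The groups were well apart, with a log2 fold change of 0.69 ± 0.09 (SE, adjusted p = 0.00152). T47D libraries held 25.9, 33.6 and 31.7 CPM in normoxia and 52.2, 62.6 and 53.3 CPM in hypoxia. Here too the groups did not overlap, and the log2 fold change was 0.80 ± 0.19 (SE, adjusted p = 0.0189).

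The call in T47D was lost without hypoxia replicate 2 (0.73, adjusted p = 0.0756), normoxia replicate 1 (0.71, adjusted p = 0.133) or normoxia replicate 2 (0.89, adjusted p = 0.0576), whereas the calls of CLK3 in HCT-116 and PC3 held without any single library. Calls over all genes also fell in these T47D fits, from 922 up and 942 down with all libraries. They were 538 and 492 without hypoxia replicate 2, 180 and 19 without normoxia replicate 1, and 322 and 85 without normoxia replicate 2. In A549, CLK3 stood at 34.8, 29.9 and 31.5 CPM in normoxia and at 31.0, 28.6 and 30.2 CPM in hypoxia. These groups overlapped, and the log2 fold change of -0.10 had a 95% interval from -0.34 to 0.13 (adjusted p = 0.472).

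The size of the CLK3 response was compared directly between lines in one fit of all 24 libraries. The interaction of line and hypoxia had an adjusted p of 0.000441 for CLK3, where 18.3% of all genes tested were called. By pairs of lines, the log2 fold change of CLK3 in A549 was lower by 1.74 ± 0.25 (SE) than in HCT-116 (adjusted p = 0.000134) and by 0.98 ± 0.25 than in T47D (adjusted p = 0.0333). HCT-116 exceeded PC3 by 0.89 ± 0.25 (adjusted p = 0.0180) and T47D by 0.76 ± 0.25 (adjusted p = 0.0517). A549 was lower than PC3 by 0.85 ± 0.25 (adjusted p = 0.123), and the difference between PC3 and T47D was -0.13, with a 95% interval from -0.64 to 0.37. The interaction call was lost without the libraries of replicate 2 in all groups (adjusted p = 0.0663). The interaction p of the other 5 kinases lay between 0.209 for SRPK1 and 0.834 for CLK2, which does not show that they respond alike across lines.

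**Figure D2:**
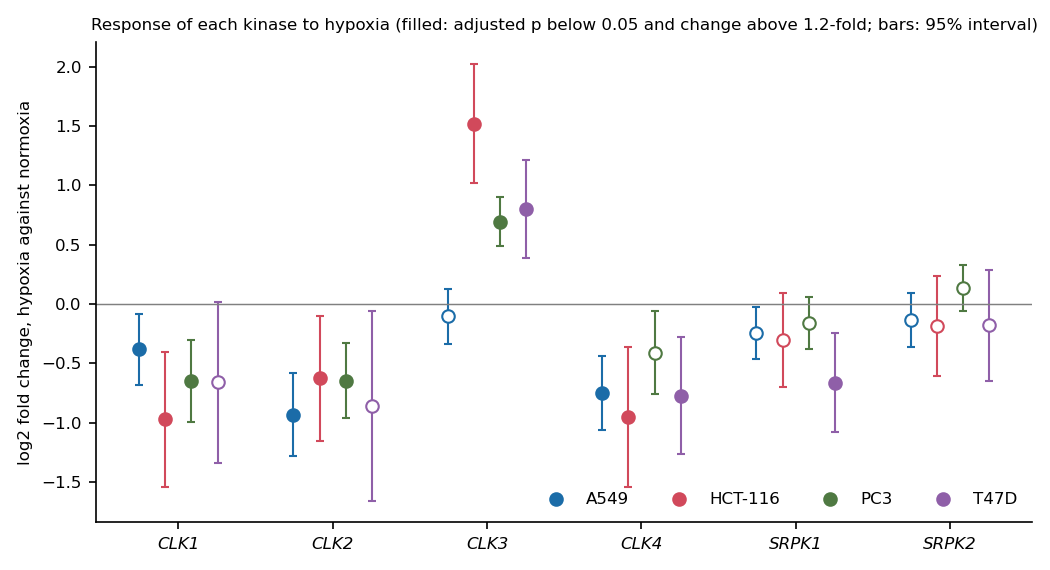
Log2 fold change of hypoxia against normoxia (vertical axis) for each kinase and cell line, with 95% intervals from each line's own fit (3 libraries per group) and filled points for genes called. CLK3 is above 0 in HCT-116, PC3 and T47D, and all 12 points of CLK1, CLK2 and CLK4 are below 0.

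CLK2 fell to 0.524 of its normoxic level in A549, 0.648 in HCT-116 and 0.638 in PC3. A549 libraries held 23.3, 23.5 and 16.2 CPM in normoxia and 12.2, 11.0 and 9.87 CPM in hypoxia. Hypoxic values were all lower, with a log2 fold change of -0.93 ± 0.16 (SE, adjusted p = 0.00133). PC3 gave 27.9, 24.7 and 31.6 CPM in normoxia and 16.2, 18.1 and 21.5 CPM in hypoxia. The groups did not overlap, at -0.65 ± 0.14 (SE, adjusted p = 0.00920).

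HCT-116 held 45.1, 51.6 and 31.7 CPM of CLK2 in normoxia and 24.8, 40.5 and 26.1 CPM in hypoxia. One hypoxic library was above the lowest normoxic one, and the log2 fold change of -0.63 ± 0.24 (SE, adjusted p = 0.0470) was close to the threshold. That call was lost with DESeq2 (-0.58, adjusted p = 0.0608) and without hypoxia replicate 1 (-0.44) or 3 (-0.48), or normoxia replicate 1 (-0.51) or 2 (-0.39). T47D held 47.8, 67.0 and 23.4 CPM in normoxia and 34.4, 32.6 and 14.6 CPM in hypoxia. Replicate 3 was the lowest library of both groups, the groups overlapped, and the log2 fold change was -0.86 ± 0.37 (SE, adjusted p = 0.136). With the replicate number as a block it was -0.81 (adjusted p = 0.0150), which is a call, as it was without normoxia replicate 3 (-1.19, adjusted p = 0.0328).

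CLK4, the closest relative of CLK1, fell in A549, HCT-116 and T47D to 0.594, 0.516 and 0.586 of its normoxic level. A549 libraries held 16.7, 15.1 and 14.4 CPM in normoxia and 8.35, 8.56 and 10.7 CPM in hypoxia. The values of HCT-116 were 12.7, 15.2 and 13.4 CPM in normoxia and 4.56, 9.96 and 8.82 CPM in hypoxia. T47D gave 23.2, 20.4 and 14.2 CPM in normoxia and 12.03, 12.4 and 11.5 CPM in hypoxia. In these 3 lines every hypoxic library was below every normoxic one.

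The log2 fold change of CLK4 was -0.75 ± 0.14 in A549 (SE, adjusted p = 0.00218), -0.96 ± 0.27 in HCT-116 (adjusted p = 0.0109) and -0.77 ± 0.23 in T47D (adjusted p = 0.0419). In PC3, with 16.0, 11.9 and 17.1 CPM in normoxia and 11.7, 11.9 and 11.5 CPM in hypoxia, the groups overlapped at normoxia replicate 2 (-0.41 ± 0.16, adjusted p = 0.0689). Without that library CLK4 was called in PC3 (-0.58, adjusted p = 0.00592), as it was with DESeq2 (-0.41, adjusted p = 0.04998) and with scaling to total counts (-0.45, adjusted p = 0.0449). The HCT-116 call was lost without normoxia replicate 2 (-0.80, adjusted p = 0.0544). The T47D call was lost without hypoxia replicate 1 (-0.77) or 2 (-0.78), or normoxia replicate 1 (-0.60) or 2 (-0.72). In these fits, in the same order, 363, 492, 19 and 85 of all genes were called down, against 942 with all T47D libraries.

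CLK1, whose own pre-mRNA is known to be stored in the nucleus with retained introns, fell in A549, HCT-116 and PC3 to 0.767, 0.510 and 0.638 of its normoxic level. HCT-116 libraries held 44.3, 61.5 and 50.8 CPM in normoxia and 17.8, 41.3 and 28.2 CPM in hypoxia. PC3 libraries held 50.9, 35.0 and 51.5 CPM in normoxia and 30.1, 28.4 and 32.5 CPM in hypoxia. Neither line had overlapping groups, with log2 fold changes of -0.97 ± 0.26 (SE, adjusted p = 0.00823) in HCT-116 and -0.65 ± 0.16 (adjusted p = 0.0133) in PC3.

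In A549 the CLK1 values were 43.0, 36.2 and 30.4 CPM in normoxia and 31.4, 26.4 and 26.4 CPM in hypoxia. These overlapped at 1 library of each group, and the log2 fold change was -0.38 ± 0.14 (SE, adjusted p = 0.0481). T47D, with 41.3, 29.4 and 15.7 CPM in normoxia and 22.2, 21.9 and 14.3 CPM in hypoxia, was not called (-0.66 ± 0.31, adjusted p = 0.172). Normoxia replicate 3 was again the lowest of its group there, and without it CLK1 was called (-0.97, adjusted p = 0.0260).

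Single libraries also decided other calls of CLK1. The A549 call was lost without hypoxia replicate 2 (-0.33) or 3 (-0.33), or normoxia replicate 1 (-0.25) or 2 (-0.39). The HCT-116 call was lost without normoxia replicate 2 (-0.76, adjusted p = 0.0528), and the PC3 call without hypoxia replicate 2 (-0.60, adjusted p = 0.0546) or normoxia replicate 1 (-0.57, adjusted p = 0.0501).

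Most calls of CLK1 and CLK4 were lost under a correction for both GC content and length of the transcript, and those of CLK2 were kept. The longest transcripts of CLK1 and CLK4 are 35.7% and 36.2% GC, beside a median of 48.4% over all genes, while those of CLK2 and CLK3 are 52.3% and 46.5%. After this correction, made within each library, the log2 fold change of CLK1 was 0.03 in A549, 0.08 in HCT-116 and -0.23 in PC3, and CLK1 was called in none of them. CLK4 went to -0.03 in HCT-116 and -0.34 in T47D, where its calls were lost, and kept its call in A549 at -0.40 (adjusted p = 0.0269). CLK2 kept its calls, at -0.96 in A549, -0.65 in HCT-116 and -0.67 in PC3. Of all genes 16.5%, 21.3%, 12.6% and 5.80% were called down under the correction in A549, HCT-116, PC3 and T47D, and 15.1%, 20.0%, 12.3% and 6.83% up.

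The rise of CLK3 held under the same correction, at 1.03 in HCT-116 (adjusted p = 0.00310), 0.40 in PC3 (adjusted p = 0.00974) and 0.66 in T47D (adjusted p = 0.0496), and CLK3 became a call downwards in A549 at -0.40 (adjusted p = 0.0255). The longest annotated CLK3 transcript has 10498 bases, however, and the canonical one 1854 bases with 55.9% GC. With canonical transcripts, a choice made after the values were seen, CLK3 stood at -0.13 in A549 (adjusted p = 0.343), 1.51 in HCT-116, 0.66 in PC3 and 0.74 in T47D. CLK1 and CLK4 behaved much as before, at 0.09 and 0.03 in HCT-116. GC content and length were corrected at once, so their parts cannot be told apart here, and what lies behind the difference between the corrected and uncorrected values was not tested.

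**Figure D3:**
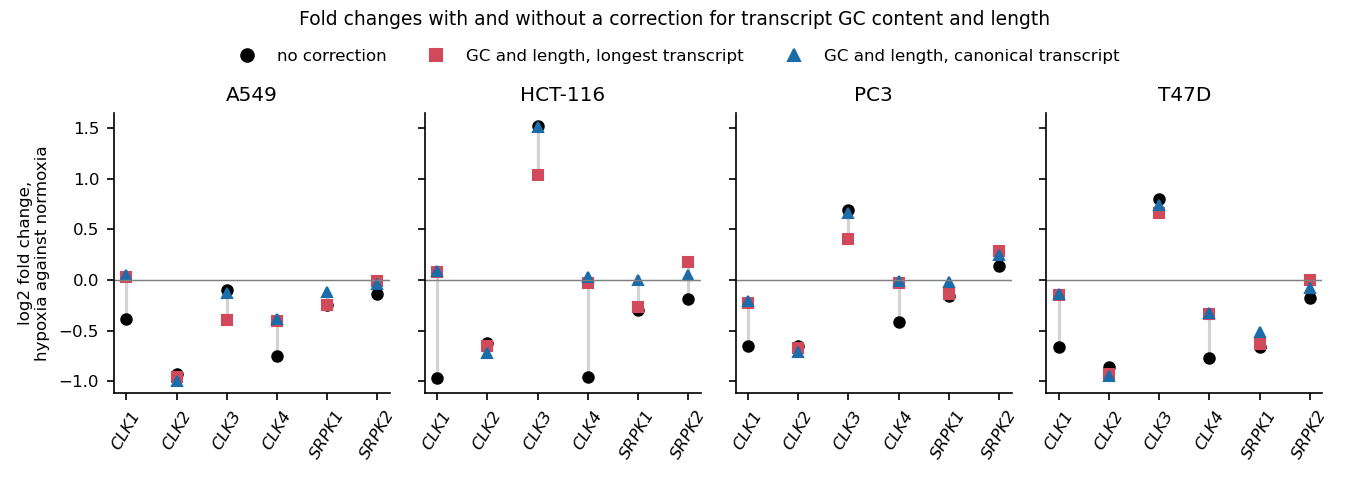
Log2 fold changes of the 6 kinases in each line (vertical axis, shared by the panels) without a correction (circles) and after correcting each library for transcript GC content and length, with the longest (squares) or the canonical transcript (triangles). CLK1 in HCT-116 moves from -0.97 to 0.08 and 0.09, whereas CLK2 in A549 stays between -0.93 and -0.99.

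SRPK1, which is widely expressed and is the better-studied of the SRPKs in tumours, was called in T47D alone, though the interaction across lines did not pass (adjusted p = 0.209). T47D libraries held 71.2, 65.1 and 65.4 CPM in normoxia and 52.6, 44.1 and 38.3 CPM in hypoxia. The groups were apart, with a log2 fold change of -0.66 ± 0.19 (SE, adjusted p = 0.0408). This call was lost without hypoxia replicate 1 (-0.78) or 2 (-0.64), or normoxia replicate 1 (-0.60) or 2 (-0.68). As for CLK4, the same fits called 363, 492, 19 and 85 of all genes down, against 942 with all T47D libraries.

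A549 held 96.3, 101 and 94.96 CPM of SRPK1 in normoxia and 77.5, 83.1 and 87.3 CPM in hypoxia. Hypoxic values were all lower there, but the log2 fold change of -0.24 ± 0.10 (SE) did not pass (adjusted p = 0.0781), except with scaling to total counts (-0.36, adjusted p = 0.0122). SRPK1 in HCT-116 was at -0.30, with a 95% interval from -0.70 to 0.10, and in PC3 at -0.16, with an interval from -0.38 to 0.06.

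SRPK2, which is highly expressed in brain, was called in no line by edgeR or DESeq2, with unadjusted p of 0.157 or more. Its log2 fold changes and 95% intervals were -0.14 (-0.37 to 0.09) in A549, -0.19 (-0.61 to 0.23) in HCT-116, 0.13 (-0.06 to 0.33) in PC3 and -0.18 (-0.65 to 0.29) in T47D. Over all libraries it ranged from 24.4 CPM in a hypoxic T47D library to 68.9 CPM in a normoxic HCT-116 library. In PC3 the hypoxic libraries (58.0, 57.5 and 54.2 CPM) were all above the normoxic ones (47.4, 53.4 and 48.4 CPM), and after the GC and length correction SRPK2 was called there (0.29, adjusted p = 0.0281). MLL5, the gene whose exons overlap SRPK2 on the other strand, rose in PC3 as well (0.47, adjusted p = 0.0065) and in HCT-116 (1.005, adjusted p = 0.0012), and its part in the SRPK2 values was not tested. SRPK3, the third human SRPK, known for its expression in muscle, had between 0 and 20 counts in a library and was tested in T47D alone (adjusted p = 0.333).

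In normoxia 14 of 36 comparisons of a kinase between a pair of lines were called (9 without replicate 2), of which SRPK1 gave 5, SRPK2 gave 4, CLK2 gave 3, CLK1 gave 2, and CLK3 and CLK4 gave 0. Of all genes, 65.0% were called for A549 against HCT-116, 60.5% for A549 against PC3 and 67.7% for A549 against T47D. The share was 66.0% for HCT-116 against PC3, 69.0% for HCT-116 against T47D and 68.1% for PC3 against T47D.

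SRPK1 was highest in PC3 at 183 ± 21.0 CPM (SD, n = 3), followed by HCT-116 at 152 ± 13.3, A549 at 97.5 ± 3.27 and T47D at 67.2 ± 3.42 CPM. PC3 and HCT-116 were not called apart (1.21-fold, adjusted p = 0.0736), and every other pair was, up to 2.73-fold between PC3 and T47D (adjusted p = 8.631e-10). SRPK2 took another order, with A549 at 65.5 ± 2.46, HCT-116 at 55.2 ± 12.5, PC3 at 49.8 ± 3.21 and T47D at 33.55 ± 6.999 CPM. T47D was below the other 3 lines, and A549 was above PC3 (1.32-fold, adjusted p = 0.0459).

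CLK2 was higher in T47D (46.1 ± 21.9 CPM) than in A549 (21.0 ± 4.16 CPM, 2.19-fold, adjusted p = 0.00196) or PC3 (28.1 ± 3.44 CPM, adjusted p = 0.0393). HCT-116, at 42.8 ± 10.1 CPM, also exceeded A549 (2.04-fold, adjusted p = 0.00461). CLK1 was lowest in T47D (28.8 ± 12.8 CPM), below HCT-116 (52.2 ± 8.68 CPM, adjusted p = 0.00784) and PC3 (45.8 ± 9.38 CPM, adjusted p = 0.0347). CLK3 lay between 28.6 and 32.7 CPM as a mean in all 4 lines and CLK4 between 13.8 and 19.3 CPM, and no pair of lines was called for either.

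Levels were compared between genes per kilobase, with the union of exons and with the canonical transcript as the length. In all 8 groups and with both lengths, SRPK1 was above SRPK2, and CLK4 was below CLK1, CLK2, SRPK1 and SRPK2. The place of CLK3 depended on the length, since the union of its exons spans 19697 bases. In HCT-116 hypoxia, CLK3 was at 5.16 CPM per kb with the union and at 54.8 CPM per kb with the canonical transcript, which put it in the fifth and the first place among the kinases.

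The libraries of a line shared the patterns of CLK1, CLK2 and CLK4. After the mean of each line was subtracted, the log2 levels of CLK1 and CLK4 had a Pearson r of 0.876 over the 24 libraries, CLK1 and CLK2 of 0.808, and CLK2 and CLK4 of 0.739. CLK3 had r = -0.552 with CLK1, -0.398 with CLK2 and -0.573 with CLK4. These points share libraries, depth and the contrast of oxygen itself, so the values are a description.

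Among 13249 genes with a mean of at least 1 CPM, the patterns most like CLK3 were those of ZFP64 (r = 0.955), DDX41 (0.948) and CAMK1D (0.946). CAMK1D was called up in all 4 lines, including A549 (0.59), where CLK3 was not called. ZFP64 was called up in HCT-116 (1.14) and PC3 (0.60), and DDX41 in HCT-116 alone (0.95). CLK1 was most like TMEM161B (0.938), IFT80 (0.934) and UBXN4 (0.924), each of which was called down in A549, HCT-116 and PC3. Such genes were chosen for their pattern over the same libraries, so their calls are a description and no separate evidence. CLK2 was most like DMTF1 (0.954), FNBP4 (0.951) and LENG8 (0.935), and CLK4 like PMAIP1 (0.934), NDUFAF7 (0.927) and GUSBP1 (0.919). For SRPK1 the nearest were ME2 (0.888), XYLB (0.866) and NEU3 (0.862), and for SRPK2 they were PRKCI (0.915), ACAP2 (0.896) and HLTF (0.842).

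The substrates of these kinases, the products of the 12 SR protein genes SRSF1 to SRSF12, were called down in part in each line. In A549, 6 of 12 tested fell and 0 rose, in HCT-116 6 of 11 fell and 1 rose, in PC3 6 of 11 fell and 2 rose, and in T47D 1 of 11 fell and 0 rose (4 fell with DESeq2 and 3 with the replicate block). Of all genes 17.8%, 27.0%, 15.7% and 6.69% were called down in these lines and 17.6%, 23.3%, 16.6% and 6.55% up. Only the T47D count of the main edgeR fit is near that background. In T47D, DESeq2 called 1396 of all 15081 genes tested down, and the replicate block 1485 of 14085. Their median log2 fold changes were -0.36, -0.60, -0.34 and -0.53 in the same order, beside medians of all genes near 0. SRSF12 was tested in A549 alone, having at most 5 counts in any library of the other lines.

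SRSF7 fell in all 4 lines, by 0.88 in A549, 1.39 in HCT-116, 0.53 in PC3 and 0.90 in T47D on the log2 scale. SRSF5, SRSF10, known as a splicing repressor when dephosphorylated, and SRSF11 each fell in A549, HCT-116 and PC3. The log2 fold changes of SRSF5 were -0.44, -1.19 and -0.92, those of SRSF10 -0.95, -0.87 and -0.47, and those of SRSF11 -0.51, -0.52 and -0.57. With the GC and length correction on the longest transcripts, 3, 3, 3 and 0 SR protein genes were called down and 1, 1, 2 and 1 up in A549, HCT-116, PC3 and T47D, where 16.5%, 21.3%, 12.6% and 5.80% of all genes were called down and 15.1%, 20.0%, 12.3% and 6.83% up. SRSF7 then kept its call in A549 (-0.66) and HCT-116 (-0.80), SRSF10 in A549 (-0.81) and SRSF5 in PC3 (-0.67), while SRSF11 was at 0.33 in HCT-116 and was called in no line. On canonical transcripts SRSF11 was called in A549 (-0.30, adjusted p = 0.0369) and PC3 (-0.34, adjusted p = 0.0161) and stood at -0.0035 in HCT-116, and SRSF7 kept its call in A549 (-0.59) and was at -0.63 in HCT-116 (adjusted p = 0.0517) and -0.62 in T47D (adjusted p = 0.0556), called in both with the replicate block.

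**Figure D4:**
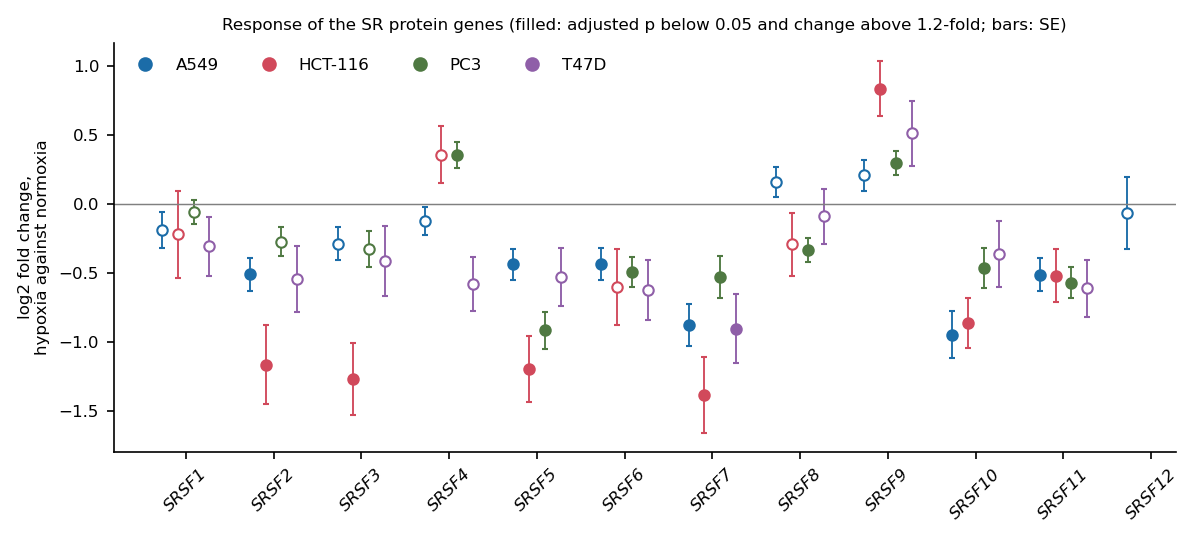
Log2 fold change of hypoxia against normoxia (vertical axis) of the SR protein genes in the lines where they were tested, with SE bars and filled points for genes called. SRSF7 is filled and below 0 in all 4 lines, and SRSF9 is above 0 in all 4 and filled in HCT-116 (0.83) and PC3 (0.29).

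The 23 genes of SR-related proteins, which carry arginine-serine stretches without being classical SR proteins, were all tested. In A549 12 fell and 0 rose, in HCT-116 7 fell and 7 rose, in PC3 3 fell and 2 rose, and in T47D 3 fell and 0 rose (5 and 1 with DESeq2, 6 and 1 with the replicate block), with medians of -0.40, 0.19, -0.03 and -0.23. With the replicate block RBM39 was no longer called down in PC3 (-0.26, adjusted p = 0.0636). The share that fell was above that of all genes in A549, and in HCT-116 and PC3 the counts were near the backgrounds of 27.0% down and 23.3% up, and 15.7% and 16.6%. In A549 17.8% and in T47D 6.69% of all genes fell, and 17.6% and 6.55% rose. ARGLU1, an arginine- and glutamate-rich splicing coactivator, fell in all 4 lines by 0.78, 1.001, 0.40 and 0.94. LUC7L3, a U1-associated factor, and PNN, a protein of exon junctions and desmosomes, fell in A549 (-1.19 and -0.75), HCT-116 (-1.51 and -0.60) and T47D (-0.87 and -0.95). PNISR, a nuclear protein rich in serine and arginine, fell in A549 (-1.005), HCT-116 (-1.33) and PC3 (-0.43). After the GC and length correction 11, 4, 0 and 1 of the list were called down and 0, 5, 2 and 0 up in A549, HCT-116, PC3 and T47D, where 16.5%, 21.3%, 12.6% and 5.80% of all genes fell and 15.1%, 20.0%, 12.3% and 6.83% rose. All 4 named genes kept their A549 calls, but PNN was at -0.06 in HCT-116 (adjusted p = 0.843), PNISR and ARGLU1 were at -0.17 each in PC3, and the T47D calls of PNN (-0.72), LUC7L3 (-0.63) and ARGLU1 (-0.70) were lost, those of PNN and ARGLU1 not with the replicate block. On canonical transcripts the HCT-116 call of ARGLU1 was lost too (-0.24).

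A further list held kinases related to the CLKs and SRPKs or known to act on SR proteins. Of 13 tested in A549, HCT-116 and PC3 and 14 in T47D, 3, 5, 5 and 1 rose and 2, 3, 0 and 0 fell, with medians of 0.16, 0.39, 0.21 and 0.16. Over all genes 17.6%, 23.3%, 16.6% and 6.55% rose and 17.8%, 27.0%, 15.7% and 6.69% fell. With the GC and length correction 2, 2, 4 and 1 of the list rose, beside 15.1%, 20.0%, 12.3% and 6.83% of all genes, and 2, 1, 0 and 0 fell, beside 16.5%, 21.3%, 12.6% and 5.80%. Adding the replicate block to the correction gave 4 up and 4 down in HCT-116, beside 24.2% and 25.2% of all genes. On canonical transcripts 2 rose and 3 fell in A549 (15.1% and 16.5% of all genes) and 2 rose and 2 fell in HCT-116 (19.1% and 20.2%). In T47D the replicate block added PRPF4B, a kinase of the spliceosome, as a call downwards (-0.71, adjusted p = 0.0281). In PC3 the block added DYRK1A as a call upwards (0.34, adjusted p = 0.0267). DYRK1B, a dual-specificity kinase of the same wider family, rose in A549 (1.38), PC3 (0.97) and T47D (1.31) and was at -0.37 in HCT-116 (adjusted p = 0.394), with an interaction across lines (adjusted p = 0.00778). HIPK1, a nuclear kinase that acts on homeodomain proteins, rose in A549 (0.46), HCT-116 (0.74) and PC3 (0.55). The calls of DYRK1B held under the GC and length correction, at 1.14, 0.71 and 1.03, and HIPK1 stood at 0.31 in A549 (adjusted p = 0.0556), 0.54 in HCT-116 (adjusted p = 0.0513) and 0.41 in PC3 (adjusted p = 0.0117). The correction with the replicate block called HIPK1 in all 3.

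The last list held 14 genes. It covered the import of SR proteins, the phosphatases that act against the kinases, the chaperones that hold SRPKs in the cytoplasm, and the kinases AKT1 and AKT2. In A549 1 rose and 5 fell, in HCT-116 4 rose and 3 fell, in PC3 2 rose and 1 fell, and in T47D 0 were called by edgeR, with 1 higher and 3 lower at an unadjusted p under 0.05 and 1 up and 1 down by DESeq2. Over all genes 17.6% rose and 17.8% fell in A549, 23.3% and 27.0% in HCT-116, 16.6% and 15.7% in PC3, and 6.55% and 6.69% in T47D. The HCT-116 and PC3 counts of the list were near or below these shares, and the T47D counts were near theirs. The replicate block called 1 of them up in T47D, PPP2CB, a catalytic subunit of protein phosphatase 2A (0.64, adjusted p = 0.0280), and left 1 up in PC3. PPP1R8, a nuclear inhibitor of protein phosphatase 1, fell in A549 (-0.44), HCT-116 (-1.12) and PC3 (-0.58), and its calls held under the correction at -0.39, -0.98 and -0.53. AKT1, a kinase known to pass growth factor signals to SRPKs, was called up in A549 (0.42), HCT-116 (0.58) and PC3 (0.28, and not with the replicate block, adjusted p = 0.0529). Under the correction with the longest transcript its values were -0.08, -0.40 and -0.25, and with the canonical one 0.19, 0.15 and 0.04, none of the latter called.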

How the data were processed

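The authors sequenced poly-A RNA and, per the labels and the study's methods, trimmed reads with Trim Galore 0.3.3, aligned them to GRCh37 with HISAT2 2.05, dropped fragments without a unique position with Picard 2.0.1 and counted the rest over UCSC gene models with HTSeq 0.5.4p3 in its intersection-strict mode. The deposited unit is the count per gene and library, not normalized, and fragments reaching into introns are not counted in that mode.

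From these counts, genes were filtered with filterByExpr, scaled by trimmed means of M values (TMM) and tested with edgeR 4.0.16 (quasi-likelihood F test, R 4.3.3), each line on its own for hypoxia against normoxia, and in one fit of all 24 libraries for the interaction of line and hypoxia and for pairs of lines in normoxia. Adjusted p-values are Benjamini-Hochberg values over all genes tested, 95% intervals come from the same fits, and levels are CPM with TMM factors over all 24 libraries. A level of 3 counts corresponds to 0.0477 to 0.132 CPM across libraries and covers counting error only. Alternatives were DESeq2 1.42.0, other scalings, filters and thresholds, the replicate number as a block, each library left out, and a correction that regressed each library's log2 deviations on splines (5 degrees of freedom) of transcript GC content and length, for which 93.4% of symbols had a GENCODE transcript, an annotation other than the one counted. The fits were also run on simulated counts with the same spread for every gene and no effect of the replicate number. The simulated GC effect was drawn from the GC content that the correction uses. These runs do not cover the spread and pairing of the real libraries, and no result here rests on them.

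The kinases, the lists and the tests were chosen with earlier results of these data known. All 6 kinases are described in full. From each list the genes called in one direction in at least 3 lines are named, up to 4, and for each kinase the 3 genes with the most similar pattern. Some genes of the line marker lists are not reported here. Promoter letters are from RefSeq (GRCh38.p14), and all 6 symbols matched. Same-numbered libraries deviated together in PC3 (r of 0.158, 0.126 and 0.118) and T47D (r of 0.226, 0.326 and 0.304), which is read from the data and not from a stated batch. The main tests left the replicate number out in every line, and the block on it was an alternative.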

Additional observations from a re-analysis of the deposited data

Results flagged for a closer look

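The hypoxia effect on CLK3 differed between the 4 lines in the test of the interaction (adjusted p = 0.0004411, edgeR, 24 libraries). CLK3 was higher in 3 of 3 hypoxic libraries than in any normoxic one in HCT-116, PC3 and T47D, with log2 fold changes of 1.52, 0.69 and 0.80, and overlapped between the groups in A549 (-0.10).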

How the results depend on the processing

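Directions of the 6 kinases held under DESeq2, other size factors and scalings, filters, thresholds, the single fit and the replicate block. They turned under the GC and length correction for CLK1 in A549 (0.029, and 0.026 with the replicate block), CLK1 in HCT-116 (0.079 and 0.0069), SRPK2 in HCT-116 (0.18 and 0.19) and SRPK2 in T47D (0.0092 with the block alone). SRPK2 in HCT-116 also turned without normoxia replicate 3 (0.021, against -0.26 to 0.021 over the libraries left out). On canonical transcripts, added after the data were seen, CLK1 was at 0.046 in A549 (0.039 with the block) and 0.085 in HCT-116 (0.015), CLK4 at 0.030 in HCT-116 and SRPK2 at 0.053 (0.064) there. Of 38 calls of the named list genes, 18 held under the correction with the longest transcript and 4 turned: SRSF11 in HCT-116 (0.33, and 0.32 with the block) and AKT1 in A549 (-0.083 and -0.096), HCT-116 (-0.40 and -0.40) and PC3 (-0.25 and -0.25). On canonical transcripts 18 held and 0 turned. The cause was not tested.

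Kinases called down in HCT-116 numbered 1 in place of 3 under the correction in all 4 forms and at an adjusted p under 0.01, and 0 to 3 without 1 library. In PC3, 1 in place of 2 was down under the 4 forms and under 0.01, 0 in the single fit, 3 with DESeq2 or total counts and 1 to 3 without 1 library, and 2 were up with the longest transcript, with or without the block. In T47D, 1 in place of 2 was down under the correction without the block, 0 under 0.01 and 0 to 4 without 1 library, while 0 were up under 0.01 and 0 to 1 without 1 library. In A549, 2 to 3 were down without 1 library. Calls over all genes changed in these settings too. In PC3, 2237 up and 2109 down became 867 and 425 in the single fit and 977 and 572 under 0.01. DESeq2 gave 2414 and 2362 there, and total counts 1917 and 2547. In T47D, 922 and 942 became 308 and 108 under 0.01. Without 1 library the T47D calls lay between 180 and 1549 up and between 19 and 1756 down. In HCT-116, 3170 and 3676 became 2002 and 2634 under 0.01. Without replicate 2 the interaction called 0 kinases (0 to 1 over replicates) and normoxia 9 pairs in place of 14 (9 to 16).

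The replicate block gave CLK2 in T47D as a call (-0.81, adjusted p = 0.0150) and changed no other kinase call. In A549 and HCT-116 the same-numbered libraries correlated at 0.253, 0.149 and 0.0503, and at 0.344, 0.258 and 0.0890, each best with its own number, a hint from the data. The block moved the calls over all genes from 2452 up and 2476 down to 2507 and 2495 in A549, and from 3170 and 3676 to 3653 and 4031 in HCT-116. The lowest count of a kinase in any library was 200, for CLK4 in HCT-116 hypoxia.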
